A study of Mus musculus with 4 samples.

Results

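The sarcomere genes described here are 48 genes that encode parts of the contractile unit of striated muscle other than the myosin heavy chains, in cultured muscle stem cells (MuSC, satellite cells) with and without the arginine methyltransferase Prmt5. They were taken by name from a list of thin filament, thick filament, Z-disc, M-band and sarcomere assembly genes, and all 48 were found among the 20065 genes of the deposited table. Total RNA, depleted of ribosomal RNA, was made into 2 control and 2 Prmt5sKO libraries and read on an Ion Torrent Proton sequencer. The cells came from limb and trunk muscles of adult mice on a C57BL/6 background. Control cells were Pax7CreERT2/Prmt5+/loxP (+TAM) and Prmt5sKO cells were Pax7CreERT2/Prmt5loxP/loxP (+TAM), so the controls also carried the Cre and 1 floxed allele and were also marked as given tamoxifen (TAM). The methods describe treatment of the cultured cells of both groups with 4-OH-TAM, the active metabolite of tamoxifen, some days before analysis. Cre was driven from Pax7, a gene of satellite cells, and Cre is therefore limited to cells in which Pax7 is or was active. The labels number the replicates 1 and 2 and do not say whether they came from separate mice or cultures, so p-values measure only the spread between these libraries. Xist, a transcript of the inactive X chromosome, had 8668 and 5655 normalized counts in 1 library of each group and at most 23.3 in the other, so the libraries of a group were not repeats of the same RNA.

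In the sarcomere, thin filaments of actin, tropomyosin and troponin slide along thick filaments of myosin. Titin spans the distance from the Z-disc, where thin filaments are anchored, to the M-band, where thick filaments are cross-linked. Proliferating satellite cells make little of this machinery, and its genes are switched on as myoblasts leave the cell cycle, differentiate and fuse under the control of MyoD family factors, MEF2 factors and SRF.

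The deposited values are group means, from which the counts of the single libraries were recovered. Since these means carry no replicate number, libraries are named by depth. The deeper and the shallower control library held 14436914 and 13240754 counts, and the deeper and the shallower Prmt5sKO library held 20047430 and 16190414. Values are normalized counts, that is, counts scaled for library size and composition, and the 4 libraries are always given in the order deeper control, shallower control, deeper Prmt5sKO and shallower Prmt5sKO. One read was worth between 0.741 and 1.3 normalized counts.

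Most sarcomere genes were highest in 1 of the 4 libraries, the shallower Prmt5sKO library. It held the highest value for 46 of the 48 genes, against 27.6% of the 16212 genes tested. Its value was at least 2 times that of the deeper Prmt5sKO library for 43 genes, against 12.9% of all genes, and at least 4 times for 36 genes, against 4.88%. The median log2 ratio between the Prmt5sKO libraries was 3.26 for the sarcomere genes and -0.01 for all genes. Of the 200 genes with the largest ratio between these libraries, 24 were sarcomere genes, which is 12% of those genes and 50% of the sarcomere genes. The share of all counts taken by the sarcomere genes was 0.763%, 0.907%, 0.738% and 3.47%. Without Ttn, the longest of them, the shares were 0.523%, 0.383%, 0.547% and 2.42%. In bulk RNA, more cells that express these genes and more of their RNA per cell cannot be told apart.

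**Figure D1:**
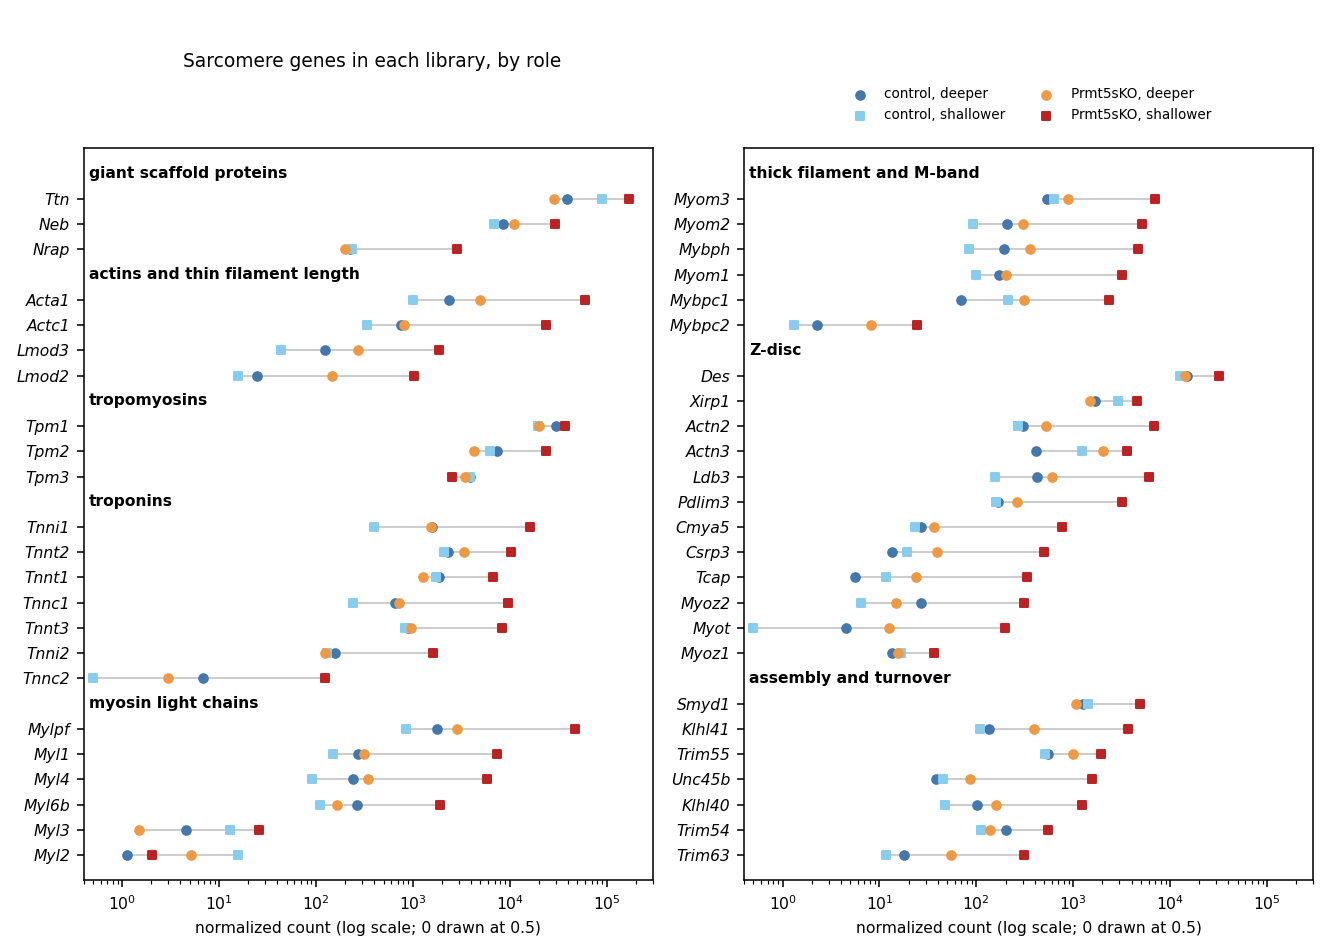
Normalized counts of the 48 sarcomere genes in each of the 4 libraries, on a log scale, grouped by role and ordered by mean level, with a grey line from the lowest to the highest library. The shallower Prmt5sKO library (red squares) lies at the right end for 46 genes, and Tpm3 and Myl2 are the exceptions.

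The deeper Prmt5sKO library stood much closer to the controls. It lay above both control libraries for 30 sarcomere genes, against 38.9% of all genes, and below both for 9, against 36.1%. It was at least 2 times the control mean for 18 genes, against 11.0% of all genes, whereas the shallower Prmt5sKO library was so for 45 genes, against 14.1%. The median log2 ratio to the control mean was 0.60 for the deeper Prmt5sKO library and 4.06 for the shallower. The control libraries also differed from each other, with the deeper above the shallower for 33 sarcomere genes, against 50.5% of all genes, and at least 2 times it for 13, against 10.8%.

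**Figure D2:**
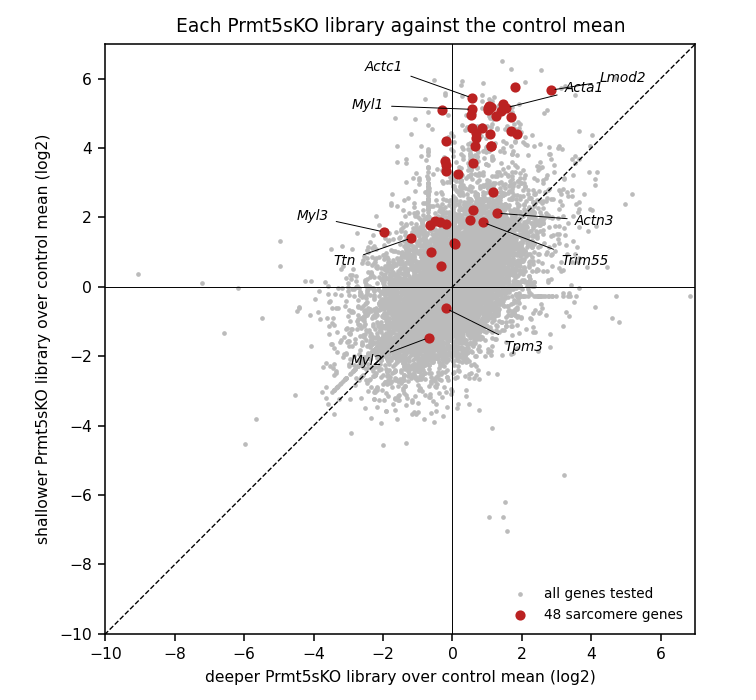
Log2 ratio of the deeper (x axis) and of the shallower (y axis) Prmt5sKO library to the mean of the control libraries, for all 16212 genes tested (grey) and the 48 sarcomere genes (red), with equality as a dashed line. Both axes share the same control mean, so the spread along the dashed line is in part that of the controls. The median of the sarcomere genes is 0.60 on the x axis and 4.06 on the y axis.

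In the comparison of the groups by limma-voom with Benjamini-Hochberg adjustment over all genes tested, 0 of the 48 sarcomere genes passed an adjusted p of at most 0.05 with a fold change of at least 2, against 0.0% of all genes. The lowest adjusted p was 0.276, for Trim55. The fitted log2 fold change, Prmt5sKO over control, was above 0 for 45 genes, against 51.4% of all genes, with a median of 2.49 and a range from -0.41 to 4.54. Both Prmt5sKO libraries lay above both control libraries for 30 genes, against 25.2% of all genes. They lay below both for 1 gene, Tpm3, against 23.6%, and the groups overlapped for 17 genes. At an unadjusted p under 0.05, 6 genes were higher in limma-voom, against 6.01% of all genes, namely Neb, Acta1, Tnnt2, Mylpf, Actn3 and Trim55, and 0 were lower, against 6.95%.

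The number of calls changed with the Prmt5sKO library kept. Without the deeper Prmt5sKO library, 37 of 48 sarcomere genes were called higher, against 2.43% of all genes, and 0 lower, against 0.64%, with a median log2 fold change of 4.30. Without the shallower one, 0 of 46 tested were called, against 0.149% of all genes called higher and 0.193% called lower, and the median was 0.63, with 34 genes above 0 and 12 below. In each of these fits the group with 1 library is assumed to vary like the other. The labels do not say that control and Prmt5sKO libraries are paired, so both possible blocks were tried. One block paired the deeper control with the shallower Prmt5sKO library, both high in Xist, and the others, low in Xist, with each other. It called 19 sarcomere genes higher, against 1.17% of all genes, and 0 lower, against 0.968%. The block with the deeper libraries paired called 0 sarcomere genes and 0 of all genes.

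**Figure D3:**
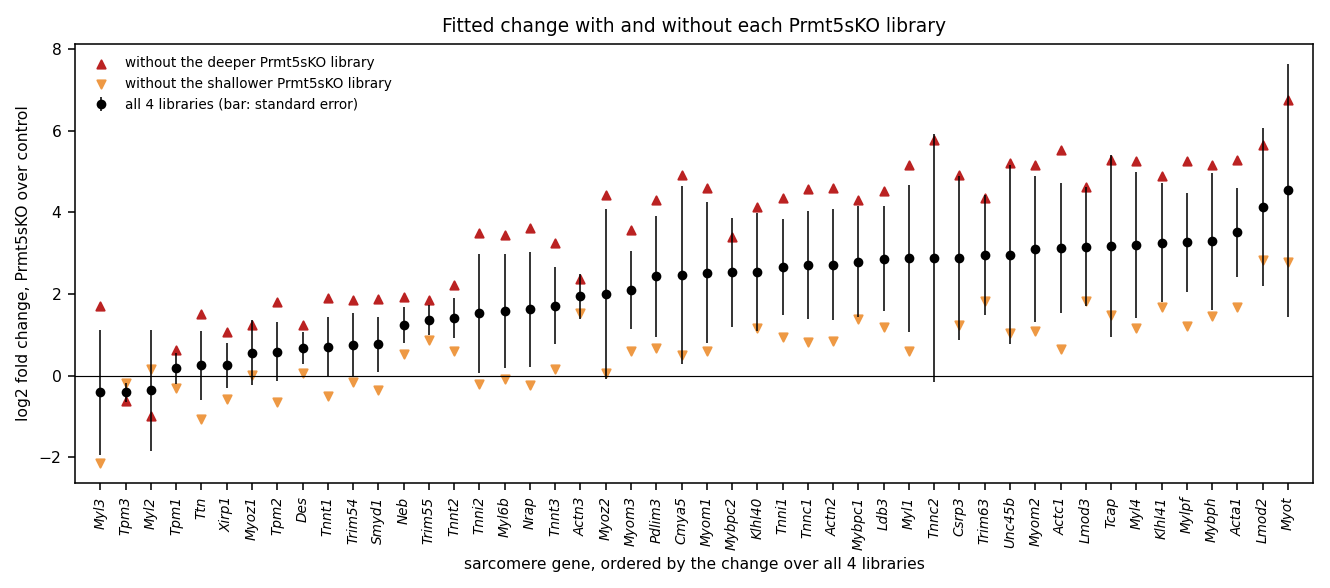
Fitted log2 fold change, Prmt5sKO over control, of each sarcomere gene over all 4 libraries (black, with its standard error), without the deeper (red triangles) and without the shallower (orange triangles) Prmt5sKO library. Tnnc2 and Mybpc2 have no orange triangle, since they did not pass the filter on low counts there. The median is 2.49 over all libraries, 4.30 without the deeper and 0.63 without the shallower Prmt5sKO library.

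The targeted gene and other checks of the libraries were as follows. Prmt5 had 2273 and 2906 normalized counts in the control and 244 and 202 in the Prmt5sKO libraries, low in both of the latter. Even so it did not pass the adjusted threshold in limma-voom, as 0 of the 16212 genes tested did. Xist had 8668, 23.3, 8.15 and 5655, so that the deeper control and the shallower Prmt5sKO library were high. The share of ribosomal-type transcripts together with Lars2 was 6.54%, 14.9%, 1.94% and 2.64%. The 6 markers of myogenic cells were detected in all libraries and summed to between 40180 and 71050, the most in the shallower Prmt5sKO library. Des, one of the 48 genes, is among them and had 14372 and 32171 in the Prmt5sKO libraries. Myod1 had 12153 and 15548 there, the latter the highest of the 4 libraries. Pax7 and Myf5, genes of satellite cells, were lowest in the shallower Prmt5sKO library, at 2570 and 1252. For Myf5 the deeper Prmt5sKO library was close to it, at 1305.5, and both lay below the controls. The 5 endothelial markers summed to between 57.3 and 166, the 3 measured haematopoietic markers to between 65.9 and 126, the 5 fibro-adipogenic markers to between 62.2 and 223 and the 4 Schwann cell markers to between 94.9 and 143, and none of these sums was highest in the shallower Prmt5sKO library except that of the Schwann cell markers. The 5 smooth muscle markers summed to 9626, 10100, 14530 and 42350, highest in the shallower Prmt5sKO library. Most of this came from Acta2, which had 12862 and 39358 in the Prmt5sKO libraries. Myh11 and Cnn1 had at most 10.2 and 6.78, so the remainder came mostly from Tagln and Smtn. The 4 measured heart muscle markers summed to 11.3, 150, 45.9 and 63.4, with Nppa at 0 except for 10.4 in the shallower control library. The part of Xist, ribosomal-type transcripts and smooth muscle actin in the results was not tested. The methods describe 2 libraries per sequencing run, and which libraries shared a run is not given in the sources used here.

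Promoters are shown because most of the genes were high in the same library and because SRF and MEF2, which bind CArG boxes and MEF2 sites, are known regulators of muscle genes. RefSeq promoters of 300 bases on GRCm38.p6, from 250 before to 50 after the start, were matched for 37 of the 48 genes and gave 43 promoters. A CArG box on either strand was found in 6 of 43 (14%), against 1.63% of 32851 promoters of the same length. These belong to 5 of the 37 genes, since a single Ldb3 site lies in overlapping promoters and is counted in each. A MEF2 site was found in 4 of 43 (9.3%), against 3.19%, and an E-box (CANNTG), the motif of MyoD family factors, in 39 of 43 (90.7%), against 72.3%. The windows that hold a CArG box are printed for 5 genes with the motif in capitals, and the distance is from the first base of the motif to the RefSeq start. For Actc1, Myl3 and Myom1 that start lies inside the gene as annotated, so the window is not at the gene's outer end. On the plus strand, Myom1 begins at 71002633 and Myl3 at 110741861.
Acta1, chr8:123894831-123894856, minus strand, 73 bases upstream: cccgacacCCAAATATGGcttgggaa
Actc1, chr2:114052905-114052930, minus strand, 47 bases upstream: taaggcgaCCAAATAAGGcaaggtgg
Ldb3, chr14:34588699-34588724, minus strand, 35 or 109 bases upstream of its RefSeq starts: gttacagtCCATTTATGGgcgcagca
Myl3, chr9:110763585-110763610, plus strand, 85 bases upstream: gccaatgcCCTTTTATGGccctgtcc
Myom1, chr17:71019450-71019475, plus strand, 99 bases upstream: cttcctggCCATAAAAGGctggctgt
Windows that hold a MEF2 site are printed for 3 other genes in the same form.
Ttn, chr2:76982696-76982721, minus strand, 166 bases upstream: ctgaaaggCTAAATTTAGcactgcca
Klhl41, chr2:69670049-69670074, plus strand, 63 bases upstream: gccggtgtCTATATTTAGccggtggg
Myom3, chr4:135759672-135759697, plus strand, 35 bases upstream: cagcgctgCTATATTTAAgacggtta
Such a match is a description of these letters and not of binding. Myl3, which holds a CArG box, had at most 26.1 normalized counts in any library, whereas Acta1 reached 60227.

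Of the 3 giant scaffold proteins, Ttn and Neb were among the most abundant sarcomere transcripts by count in every library, and Nrap was not. Ttn encodes titin and lies on chromosome 2, 76703980 to 76982547, on GRCm38. Its normalized counts were 39149, 90033, 28427 and 171010, so the groups overlapped and the deeper Prmt5sKO library was the lowest. The fitted log2 fold change was 0.25 ± 0.84 (SE). Neb encodes nebulin, which runs along the thin filament. It had 8607, 6923, 11127 and 29331, higher in both Prmt5sKO libraries, with a log2 fold change of 1.24 ± 0.45 (SE) and an adjusted p of 0.347 in limma-voom. Nrap, which acts in myofibril assembly, had 224, 239, 199 and 2848, with overlapping groups.

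For all 4 genes of actins and thin filament length, both Prmt5sKO libraries lay above both controls, as they did for 25.2% of all genes. Acta1 encodes skeletal muscle alpha-actin, on chromosome 8, 123891769 to 123894751. It had 2366, 1001, 4951 and 60227, and the shallower Prmt5sKO library was 12.2 times the deeper. The log2 fold change was 3.51 ± 1.09 (SE), with an adjusted p of 0.307 in limma-voom. Actc1, the cardiac alpha-actin that developing skeletal muscle also uses, had 758, 333, 806 and 23733. Its deeper Prmt5sKO value stood just above the deeper control, and the ratio between the Prmt5sKO libraries was 29.4. The leiomodins nucleate actin filaments. Lmod2 had 24.9, 15.6, 145 and 1027, and Lmod3 had 124, 44.1, 271 and 1874. These were 7.18 and 3.22 times the control mean in the deeper Prmt5sKO library, and Lmod2 showed the largest such ratio of the 48 genes. Of the stretches of 40 bases in Acta1, 2.74% also occur in other genes, among them Actb, and 0% of those in Actc1.

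Tropomyosins, which lie along actin and set access of myosin to it, had the lowest median log2 fold change of the 8 role groups, at 0.18. Tpm1 had 30415, 19637, 19935 and 37676, with a log2 fold change of 0.18 ± 0.38 (SE). Tpm2 had 7452, 6254, 4334 and 23664, lowest in the deeper and highest in the shallower Prmt5sKO library. The groups overlapped for both. Tpm3, which is also expressed outside muscle, had 3881, 3930, 3438 and 2534. It was the single gene lower in both Prmt5sKO libraries, with a log2 fold change of -0.41 ± 0.23 (SE) and an adjusted p of 0.482 in limma-voom, and 25% of its stretches of 40 bases occur in other genes, mostly Tpm3-rs7 and pseudogenes, so its counts are uncertain.

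Troponins, which make the thin filament respond to calcium, were highest in the shallower Prmt5sKO library for all 7 isoforms. Among the calcium-binding subunits, Tnnc1, the slow and cardiac form, had 652, 243, 717 and 9709. Tnnc2, the fast form, had only 6, 0, 4 and 124 reads. It overlaps Ube2c on the opposite strand, which had between 1366 and 1867 reads, and the sources used here do not say that strand was used in counting. Among the inhibitory subunits, the slow form Tnni1 had 1573, 394, 1545 and 16268, and its deeper Prmt5sKO value lay between the controls. The fast form Tnni2 had 156, 130, 124 and 1625. Both therefore had overlapping groups. Among the tropomyosin-binding subunits, the slow form Tnnt1 had 1857, 1725, 1268 and 6692, and the deeper Prmt5sKO library was the lowest. The cardiac form Tnnt2 had 2328, 2089, 3345 and 10211, higher in both Prmt5sKO libraries, with a log2 fold change of 1.41 ± 0.50 (SE) and an adjusted p of 0.336 in limma-voom. The fast form Tnnt3 had 901, 829, 966 and 8273, with the deeper Prmt5sKO value just above the controls.

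Myosin light chains bind the neck of the myosin heavy chain. Mylpf, the fast regulatory chain, had 1771, 855, 2855 and 47465, with a log2 fold change of 3.26 ± 1.21 (SE) and an adjusted p of 0.352 in limma-voom. Its shallower Prmt5sKO value was 16.6 times the deeper. Myl2, the slow and ventricular regulatory chain, had 1, 12, 7 and 2 reads and was the other gene not highest in the shallower Prmt5sKO library. Among the essential chains, Myl1, the fast form, had 275, 152, 316 and 7379, and 13.2% of its stretches of 40 bases are shared with the pseudogene Mylf-ps. Myl4, the embryonic and atrial form, had 241, 92.1, 342 and 5872. Both were higher in both Prmt5sKO libraries. Myl6b, a form shared with slow muscle and non-muscle cells, had 266, 109, 165 and 1908, with overlapping groups. Myl3, the slow and ventricular form, had 4, 10, 2 and 26 reads, too few to order the libraries. Its fitted log2 fold change was -0.41 ± 1.52 (SE), although the mean of the Prmt5sKO libraries is the higher one.

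All 6 genes of the thick filament and M-band were higher in both Prmt5sKO libraries, against 25.2% of all genes. Myomesins cross-link thick filaments at the M-band. Myom3 had 537, 637, 885 and 6954, and Myom2 had 207, 93.4, 305 and 5118. Myom1 had 171, 98.6, 200 and 3192, and it overlaps Myl12a on the opposite strand, which had between 6635 and 16853 reads. The myosin-binding proteins Mybpc1, Mybpc2 and Mybph followed the same order of groups, with Mybpc2 at no more than 24.1. Over the 6 genes the log2 fold change ran from 2.09 to 3.29, and the adjusted p from 0.409 to 0.55 in limma-voom.

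Of 12 Z-disc genes, 8 were higher in both Prmt5sKO libraries, against 25.2% of all genes, and the groups of the other 4 overlapped. Des, which encodes the intermediate filament desmin that ties Z-discs together and is also a marker of myogenic cells, had 14906, 12514, 14372 and 32171. Xirp1, an actin-binding protein of muscle attachment and repair, had 1675, 2883, 1486 and 4588. Both had overlapping groups, with the deeper Prmt5sKO library within or below the controls. The alpha-actinins cross-link thin filaments at the Z-disc. Actn2 had 303, 271, 520 and 6892. Actn3, the fast-fibre form, had 408, 1236, 2006 and 3576, and the ratio of 1.78 between the Prmt5sKO libraries was the smallest of the 8. Its log2 fold change was 1.94 ± 0.54 (SE), with an adjusted p of 0.282 in limma-voom. Ldb3, Pdlim3, Csrp3, Tcap, Cmya5 and Myot were the other genes higher in both, and Myot was at 0 in the shallower control and at 197 in the shallower Prmt5sKO library. Myoz1 and Myoz2, which bind calcineurin at the Z-disc, had overlapping groups, and Myoz1 stayed between 13.6 and 36.2.

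Of 7 genes of assembly and turnover, 5 were higher in both Prmt5sKO libraries, against 25.2% of all genes. Smyd1, a muscle methyltransferase that acts with myosin chaperones, had 1269, 1432, 1057 and 4947, with the deeper Prmt5sKO library lowest. Klhl41, a Kelch protein of sarcomere maintenance, had 136, 110, 396 and 3647. Trim55, a muscle ubiquitin ligase of the MuRF family, had 555, 512, 985 and 1930. Both Prmt5sKO libraries lay above both controls, and the log2 fold change of 1.36 ± 0.37 (SE) had an adjusted p of 0.276 in limma-voom. Its relatives differed, since Trim63 had 18.1, 11.7, 54.1 and 314, whereas Trim54 had 203, 113, 139 and 554 with overlapping groups. Unc45b, a myosin chaperone, had 38.4, 45.4, 86.7 and 1561, and Klhl40 had 101, 48, 159 and 1241.

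Isoform shares within a family, per kilobase of exon, differed between the Prmt5sKO libraries to unequal extents. Tnnt3 made up 33.2%, 33.2%, 37.7% and 54.6% of troponin T. Tpm2 made up 32.5%, 36.9%, 29.0% and 56.6% of tropomyosin, and Actn2 made up 36.2%, 14.4%, 16.5% and 59.6% of sarcomeric alpha-actinin. In these 3 families the shallower Prmt5sKO library was the highest. Acta1 made up 76.7%, 76.0%, 86.6% and 72.8% of the 2 actins, lowest in the shallower Prmt5sKO library, and Tnni1 made up 80.7%, 55.8%, 83.8% and 80.6% of troponin I. Myoz2 made up 52.5%, 17.5%, 34.5% and 82.5% of the 2 myozenins, the largest difference between the Prmt5sKO libraries, although from few reads in 3 libraries. The length used is that of all annotated exons of a gene together, and the shares depend on it. Without division by length, the share of Tnnt3 in the shallower Prmt5sKO library was 32.9% in place of 54.6%. That of Tpm2 was 37.0% in place of 56.6%, below Tpm1 at 59.0%, and that of Actn2 was 65.8% in place of 59.6%. By fibre type, 5 of 8 fast isoforms and 4 of 9 slow or cardiac isoforms were higher in both Prmt5sKO libraries, against 25.2% of all genes, with 0 lower in both, against 23.6%. The difference between these counts was not tested.

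**Figure D4:**
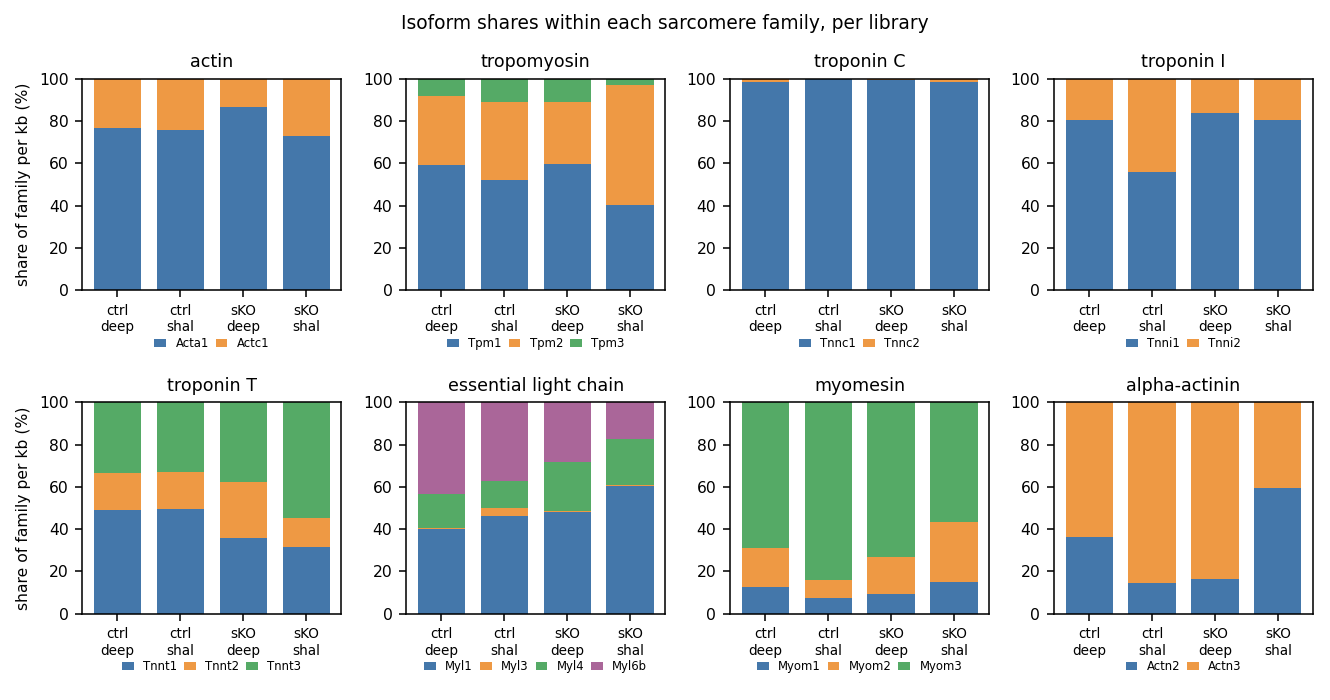
Share of each isoform in its family sum per kilobase of exon, in percent, for 8 families in the 4 libraries (ctrl, control; sKO, Prmt5sKO; deep, deeper; shal, shallower). Tnnt3, Tpm2 and Actn2 take their largest shares in the shallower Prmt5sKO library, at 54.6%, 56.6% and 59.6%.

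Related genes outside the 48 were set beside them. The 9 striated muscle myosin heavy chains, the motors of the thick filament, had a median log2 ratio between the Prmt5sKO libraries of 4.40, and 4 were higher in both, against 25.2% of all genes. The 20 non-muscle and smooth muscle paralogues of the sarcomere genes had a median ratio of -0.08. Of these, 7 were higher and 4 lower in both Prmt5sKO libraries, against 25.2% and 23.6% of all genes. They took between 1.51% and 1.91% of the counts in every library. For 2 of the 20, against 12.9% of all genes, the shallower Prmt5sKO library was at least 2 times the deeper. These were the smooth muscle genes Acta2, at 3.06 times, and Lmod1, at 7.52 times. Of the 10 myogenic regulators, 4 were higher in both Prmt5sKO libraries, against 25.2% of all genes, and 1 was lower, against 23.6%. Myog, which drives terminal differentiation, had 1436, 1189, 3707 and 19508, higher in both. The median log2 ratio between the Prmt5sKO libraries was 0.59 for these regulators. Mef2c had 99.4, 63.5, 147 and 2913. The other MEF2 factors measured differed less between the Prmt5sKO libraries, with Mef2a at 2558.5, 2346, 2854 and 7031. Mef2d had 1688, 2164.5, 2346.5 and 4066. Srf had 2251, 1825, 1596 and 2101, with overlapping groups. Pax7 had 3080, 3002, 3664 and 2570, and Myod1 had 15445, 12944, 12153 and 15548, both with overlapping groups. Of 20 S-phase genes, 19 were lower in both Prmt5sKO libraries, against 23.6% of all genes, and their median log2 ratio to the control mean was -1.31 for the deeper library and -1.07 for the shallower. Their median log2 ratio between the Prmt5sKO libraries was 0.15, against 3.26 for the sarcomere genes. None of the genes set beside the 48 passed the adjusted threshold in limma-voom.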

How the data were processed

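Reads were trimmed with Reaper, aligned to mm10/GRCm38 with STAR 2.4.0a and counted per gene, and the groups were compared by the authors with DESeq2 1.62 (versions per the submitters' processing notes). In the deposited table, the signal is the authors' mean of counts divided by size factors, over the 2 libraries of a group or over all 4, so replicates were averaged before deposition. The lowest mean over all libraries in the table is 0.9. A further 4 columns hold the authors' fold changes, standard errors and p-values, and were not used.

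Each group mean adds up whole numbers of reads, each read of a library being worth a fixed step. Counts were recovered for 100% of genes with 1 solution each, within a relative tolerance of 1e-13, and on simulated data for 19463 of 19463 and 19814 of 19814 genes. Groups were compared with limma-voom (limma 3.58.1, R 4.3.3, Python 3.11.15), TMM factors (trims of 30% and 5%), genes kept from a mean of 5 normalized counts upwards and Benjamini-Hochberg adjustment over 16212 genes. A call needed an adjusted p no higher than 0.05 and at least a 2-fold change. On simulated counts for this comparison with a dispersion of 0.01, 200 of 200 genes changed 4-fold were called, with 7 unchanged genes, of 16177 tested. Every simulated gene had that dispersion, so this checks the code and not the power of the data. Values under 3 counts were set to 3 counts in ratios between libraries. Symbols came from GENCODE M21 (19782 of 20065 genes matched).

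The group means carry no replicate number, so both pairings of the libraries were tried. Deviations from the group means correlated at -0.29 with the deeper libraries paired and at 0.29 with the deeper paired with the shallower (11487 genes). With 2 pairs this does not show that the libraries are paired.

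The members and lists were chosen with earlier results of these data known. Library values are given for the 2 most abundant members of each of 8 role groups, every troponin, myosin light chain and actin isoform, members lower in Prmt5sKO or with less than a 1.5-fold difference between the Prmt5sKO libraries, and members with the lowest unadjusted p and groups that do not overlap. Library values of other members were added for their roles after they had been seen. Some items are not reported here. Normalization, filter, test, depth, pairing and each library were varied.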

Additional observations from a re-analysis of the deposited data

How the results depend on the processing

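With the authors' size factors, library size only, upper quartile scaling, no filter, limma-trend and counts thinned to the smallest total, 0 sarcomere genes were called, and their median log2 fold change ran from 2.48 to 2.66. Scaling by library size only moved the median of all genes from 0.02 to 0.13 and the genes at an unadjusted p under 0.05 from 975 higher and 1126 lower to 1365 and 764. Leaving out each library in turn gave 0 to 489 genes called over all genes and 0 to 37 sarcomere genes. Sarcomere genes for which every Prmt5sKO library kept lay above every control library kept numbered from 29 to 46, against 30 with all 4 libraries, and the ends of this range come from fits with 1 Prmt5sKO library. The 489 and 37 calls came without the deeper Prmt5sKO library, and 55 genes and 0 sarcomere genes were called without the shallower one. The median log2 fold change of the sarcomere genes ran from 0.63, without the shallower Prmt5sKO library, to 4.30, without the deeper. The replicate block with the deeper libraries paired called 0 genes. The replicate block with the crossed pairing called 346 genes, 19 of them sarcomere genes, and the cause was not tested. Myl3, at few reads, turned from -0.41 to 0.003 in limma-trend and to 0.35 under either block. Over the fits that left out a library, log2 fold changes that turned sign ran from -1.07 to 1.52 for Ttn, -0.56 to 1.06 for Xirp1, -0.29 to 0.63 for Tpm1, -2.13 to 1.71 for Myl3, -0.22 to 3.62 for Nrap, -0.66 to 1.79 for Tpm2, -0.20 to 3.50 for Tnni2, -0.50 to 1.90 for Tnnt1, -2.07 to 0.16 for Myl2, -0.08 to 3.45 for Myl6b, -0.15 to 1.84 for Trim54 and -0.35 to 1.88 for Smyd1. Depth limits Myl2, Myl3, Mybpc2, Tnnc2 and Myot, each with fewer than 3 counts in at least 1 library.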

Other observations

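Of 18 measured sarcomere genes outside the 48, 7 were higher and 2 lower in both Prmt5sKO libraries, against 25.2% and 23.6% of all genes. The median of their log2 fold changes was 0.66. The shallower Prmt5sKO library was highest for 14 of them, against 27.6% of all genes. It was at least 4 times the deeper for 9, against 4.88%. Hspb7, a small heat shock protein of muscle, had 53.1, 27.2, 83 and 1213 normalized counts, highest in the shallower Prmt5sKO library. Flnc, which encodes filamin C of the Z-disc, had 10375, 8628, 6244 and 20468, with overlapping groups. Fhl3, a LIM protein, had 1086, 1017, 731 and 593 and was lower in both Prmt5sKO libraries.

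Genes of heart muscle differed in which library was highest. Myh6 had 2.26, 96, 0 and 30.2 normalized counts, Myl7 had 0, 25.9, 0 and 1.01, and Mybpc3 had 4.52, 19.5, 0 and 1.01, all highest in the shallower control library. Tnni3 had 9.04, 18.2, 45.9 and 32.2, highest in the deeper Prmt5sKO library. Myl2, among the 48, was also highest in the shallower control library, at 15.6.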
